A study of Mus musculus with 48 samples.

Results

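RNA that sedimented with ribosomes from cortical synaptosomes was compared between mice of 5 months (5m) and mice of 3 weeks (3w). The comparison used 8 of the 48 libraries of the series, which are the synaptosome pellets (SC_SYN) of mice 187 to 190 at 3w and of mice 191 to 194 at 5m. They were chosen by fraction and age alone, and all genes with enough reads were tested. The animals are given as male wild-type C57BL/6JRj mice from Janvier, and each library of an age came from a separate mouse. For the study as a whole, the methods name the Leibniz Institute on Aging as well as Janvier, with C57BL/6 as the strain. Sources differ on the age of the older group, with 6 months in the sample labels and 5 months in the methods, and 5m is used here. Each of 12 mice, 4 per age (3w, 5m and 18 months, 18m), gave 4 libraries, from total homogenate (TH) and from synaptosomes (SYN), each before (input) and after (SC) sedimentation through a sucrose cushion. No group carried a transgene or received a treatment, and cycloheximide, which holds ribosomes on mRNA, was present during lysis and sedimentation of every pellet.

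A synaptosome is a pinched-off nerve terminal that reseals during homogenization, often with a piece of the postsynaptic membrane attached. The preparation also takes along fragments of glial processes and myelin, and the RNA that sediments with its ribosomes is read as the set of transcripts under local translation. The interval from weaning to adulthood is a time in which cortical oligodendrocytes complete much of their myelination, synapses are pruned and neurons close their critical periods.

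Gene counts summed to 5415274 to 6132944 per library at 3w and to 8328535 to 14557582 at 5m, so each library was deeper at 5m than any at 3w. Expression is given in CPM, counts relative to the TMM-scaled size of the library, and per-mouse values follow the order of the mouse numbers above. The sequencing run and gradient batch of each library are not given in the sources used here, so age and such a batch cannot be told apart. A principal component analysis of the 500 most variable genes used the 12 SC_SYN libraries of all 3 ages. On its first component (43.3% of the variance), the 3w libraries lay between -25.3 and -6.95 and the 5m libraries between 6.97 and 14.6. The 18m libraries of mice 195 and 198 lay at -3.49 and -5.02, and those of mice 196 and 197 lay within the 5m range. Mice 195 and 198 had 6268207 and 5341263 counts, against 18590040 and 15306804 for mice 196 and 197. The component thus did not order the libraries by age alone, and its relation to depth was not tested. The neuronal markers Snap25, Syt1, Rbfox3, Slc17a7 and Gad1 were counted in every library and none of them passed the edgeR test of age (0 at an unadjusted p under 0.05 and 0 with DESeq2; median log2 fold change -0.02). With GC and length trends removed Slc17a7, the vesicular glutamate transporter, was called lower (-0.45, edgeR adjusted p = 0.0142). Markers of other cells were present as well: 25 astrocyte genes summed to 28829 to 33257 CPM at 3w and 28 genes of mature oligodendrocytes and myelin to 9489 to 11457 CPM. In the 18m mice, which take no part in this contrast, the median ratio of SC_SYN over SC_TH (log2) was 1.32 for 25 microglial genes, 1.25 for astrocyte genes, 0.35 for myelin genes, 0.46 for 32 postsynaptic scaffold genes, -0.53 for the 5 neuronal markers, -1.42 for 11 nuclear RNAs and -3.26 for 7 erythroid genes. The pellets therefore hold glial transcripts in quantity, and the part that glial fragments play in the age differences was not tested.

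At 5m, 573 genes were higher and 573 were lower than at 3w among 14240 tested (8.05% in all, 4.02% in each direction; edgeR's quasi-likelihood test with Benjamini-Hochberg adjustment, adjusted p under 0.05). The change exceeded 1 on the log2 scale for 148 of the genes that rose and for 192 of those that fell. The 4 values at 5m lay entirely above or below the 4 values at 3w for 540 of the higher genes and 548 of the lower genes, against 2533 of all genes tested (17.8%). Genes named below for the size of their change were picked among those without overlap, so their separation is no further result. In 358 genes (151 higher and 207 lower) the call was made in each of 18 alternative fits. The balance of directions depended on the scaling, with 458 higher and 711 lower genes when only library size was used and 467 higher and 789 lower when trends on GC content and transcript length were removed. With every library thinned to equal depth, 478 genes were higher and 479 lower. Leaving out any mouse other than 187 reduced the count by over 1.5 times, to values from 558 genes without mouse 189 to 758 without mouse 190.

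**Figure D1:**
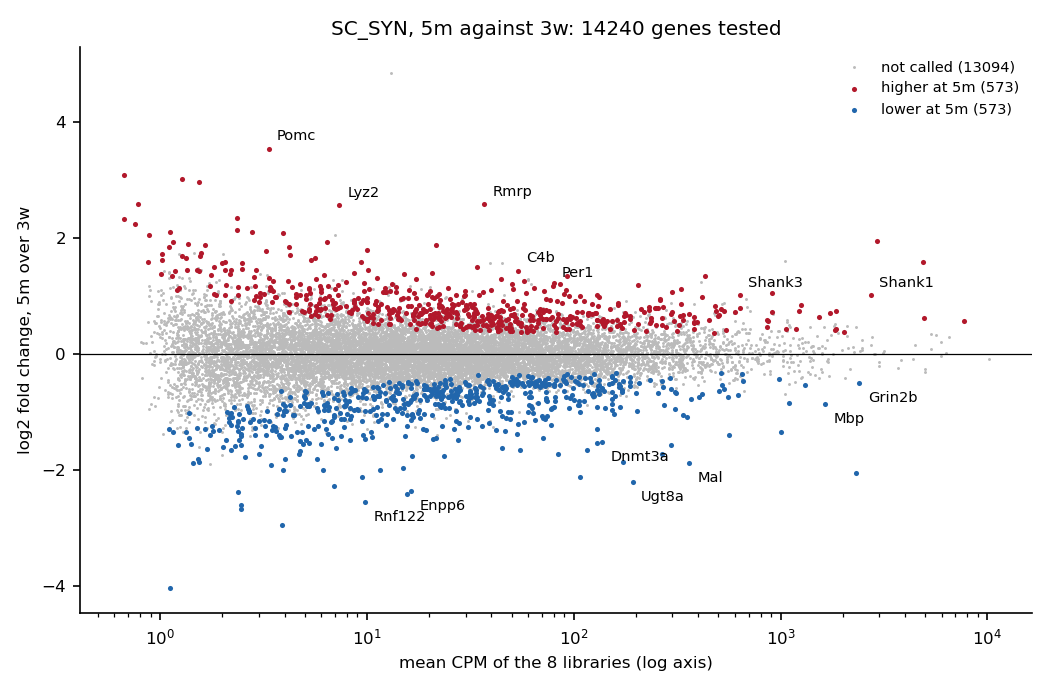
Log2 fold change (5m over 3w, y axis) against the mean CPM of the 8 SC_SYN libraries (x axis, log scale), 1 point per tested gene. The 573 higher genes are red and the 573 lower genes blue. The myelin genes Mal and Ugt8a lie far below most genes of their abundance, and Shank1 is among the most abundant genes that rose.

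Transcripts rich in G and C were shifted upwards at 5m and those rich in A and T downwards. Over 5 equal groups of genes ordered by GC content, the median log2 fold change was -0.19, -0.10, -0.02, 0.10 and 0.23. The lowest group contained 18 higher and 147 lower genes, and the highest group 246 higher and 47 lower. The median GC content was 54.8% for the genes that rose, 48.1% for those that fell and 49.9% for all genes. The slope had the same sign in SC_TH (-0.13 to 0.18 from the lowest to the highest group) and in input_SYN (-0.09 to 0.10) and the opposite sign in input_TH (0.05 to -0.05). For this reason the value with GC and length trends removed is given below where it ends a call. The libraries of each age also differed among themselves in this property. For the group richest in G and C, the median deviation from the mean of the 8 libraries (log2) was 0.08, -0.43, -0.10 and -0.02 at 3w and 0.30, 0.04, 0.13 and 0.02 at 5m, so the ages overlapped, with mouse 188 lowest and mouse 191 highest. Of the 1146 genes, 887 were still called with these trends removed.

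**Figure D2:**
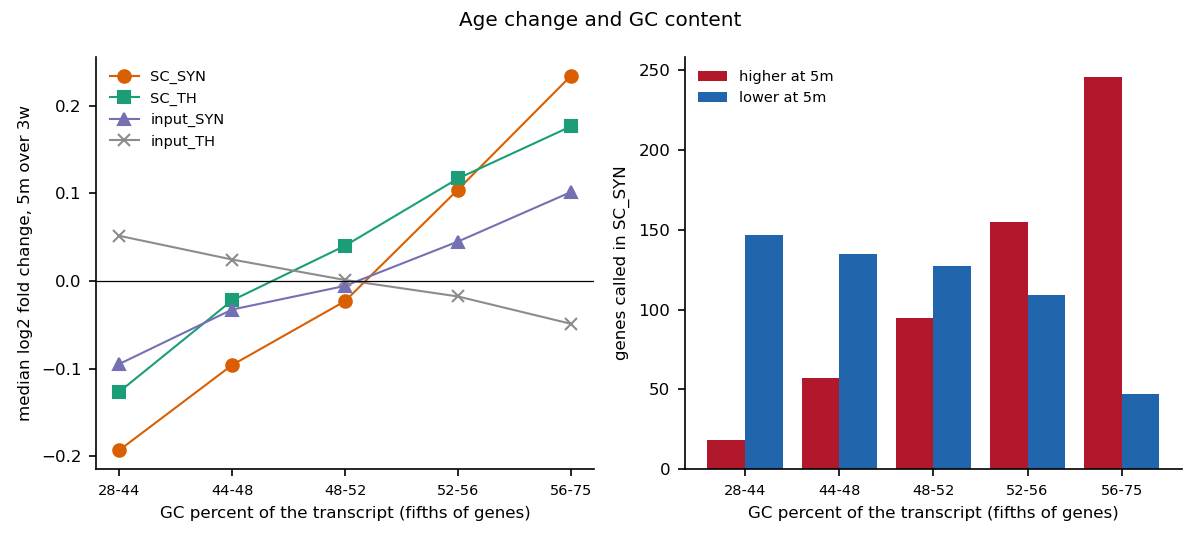
Left, median log2 fold change (5m over 3w) in 5 equal groups of genes by GC percent for the 4 fractions. Right, number of genes called higher (red) or lower (blue) in SC_SYN in each of these groups. Medians in SC_SYN run from -0.19 to 0.23, and those of input_TH from 0.05 to -0.05.

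Many genes of the oligodendrocyte lineage fell at 5m. Of 28 genes of mature oligodendrocytes and myelin, 15 fell and 1 (Qdpr, an enzyme that regenerates tetrahydrobiopterin in many cell types) rose, with a median log2 fold change of -0.94 against -0.01 over all genes. Mbp, the myelin basic protein whose mRNA is carried into oligodendrocyte processes, was at 2498, 1849, 2120.1 and 2038 CPM at 3w and 1179, 1219.7, 1241 and 1011 CPM at 5m, without overlap of the groups (log2 fold change -0.87 ± 0.15 (SE), edgeR adjusted p = 0.00425). Ugt8a, which makes the myelin lipid galactosylceramide, was at 295, 362, 349 and 262 CPM at 3w and 71.3, 73.7, 52.5 and 76.5 CPM at 5m. It fell from 317 ± 46.8 to 68.5 ± 10.9 CPM (mean ± SD, n = 4 mice per age; log2 fold change -2.21 ± 0.16 (SE), edgeR adjusted p = 2.02e-06), and every 5m value was below every 3w value. Mal, Mog, Mag and Cnp, which are further proteins of the myelin membrane, fell by 1.88, 1.73, 1.40 and 1.05 on the log2 scale.

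The same was seen one stage earlier in the lineage. Of 19 tested markers of newly formed oligodendrocytes 14 fell and none rose, with a median of -0.84. Enpp6, a choline phosphodiesterase that marks cells about to myelinate, was at 37.7, 22.4, 22.03 and 27.6 CPM at 3w and 5.51, 5.97, 4.59 and 5.15 CPM at 5m. Bcas1, another marker of this stage, fell from 411 ± 74.6 to 123 ± 27.7 CPM (log2 fold change -1.73 ± 0.19 (SE), edgeR adjusted p = 7.60e-05). All values of Enpp6 and of Bcas1 at 5m were below all values at 3w. Bmp4, a ligand that holds precursors back from differentiation, fell by 1.55. The kinase Fyn, which acts in process outgrowth of oligodendrocytes, fell by 0.82. Among 15 precursor markers 6 fell and none rose, led by Gpr17, a receptor of committed precursors (log2 fold change -1.54 ± 0.14 (SE)), and including Pdgfra, the receptor that keeps precursors dividing (-0.63), and Olig2 (-0.81). The precursor markers called lower were 9 with GC and length trends removed. Cspg4, which pericytes also express, was at 144, 72.0, 89.7 and 88.6 CPM at 3w and 138, 92.5, 105 and 104 CPM at 5m, with overlapping groups.

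Summed over the list, myelin genes took 9489 to 11457 CPM at 3w, 4144 to 4570.4 CPM at 5m and 3784 to 4593 CPM at 18m, so the level reached at 5m was also found in the oldest mice. As a share of all counts this was 1.06% ± 0.0880 at 3w and 0.431% ± 0.0170 at 5m (SD, n = 4), with a two-sided exact permutation p of 0.0286, which is the smallest that 4 against 4 mice allow and becomes 0.114 after adjustment over 4 shares. The medians of the list were -0.94 (SC_SYN), -0.55 (SC_TH), -0.84 (input_SYN) and -0.63 (input_TH). Those of the newly formed stage were -0.84 (SC_SYN), -0.78 (SC_TH), -0.91 (input_SYN) and -0.63 (input_TH). The medians were thus negative in homogenate and in input RNA too, each measured in its own 4 and 4 libraries of the same mice. In bulk RNA, fewer cells of a type and less RNA per cell cannot be told apart.

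**Figure D3:**
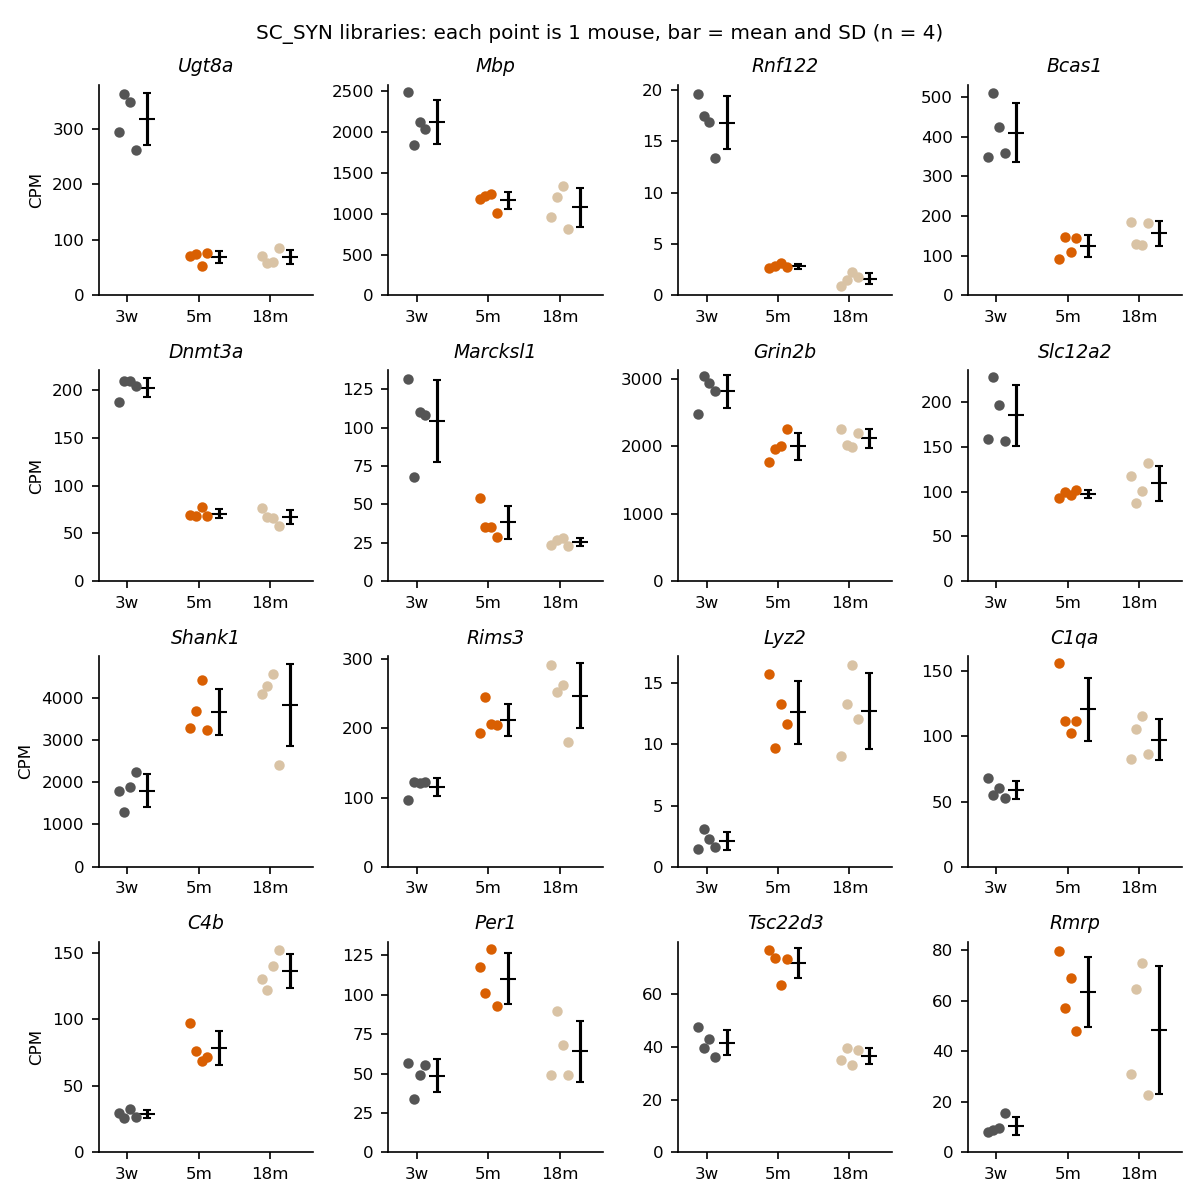
CPM of 16 genes in each SC_SYN library (y axis, from 0) at 3w, 5m and 18m. Each point is 1 mouse, and the bar beside the points gives mean and SD (n = 4). For Ugt8a, Dnmt3a, Lyz2, C4b and Rmrp all 5m points lie apart from all 3w points, and all Tsc22d3 points at 18m lie below all those at 5m.

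The microglial and complement genes that passed the test moved the other way. Of 25 microglia and macrophage markers 12 rose and none fell (median 0.74), and the list summed to 769.8 to 919 CPM at 3w and 1336 to 1652 CPM at 5m. Lyz2, the lysozyme of macrophages (chromosome 10, 117277331 to 117282321, - strand), was at 1.44, 3.07, 2.26 and 1.63 CPM at 3w and 15.8, 9.69, 13.3 and 11.7 CPM at 5m. Every 5m value was above every 3w value (log2 fold change 2.57 ± 0.27 (SE), edgeR adjusted p = 4.45e-05). C1qa, a subunit of the complement component that tags synapses for removal, was at 68.2, 54.9, 60.2 and 52.7 CPM at 3w and 156, 112, 103 and 112 CPM at 5m. The other C1q chains C1qb and C1qc, the lipid receptor Trem2 with its adaptor Tyrobp, the survival receptor Csf1r, and Tmem119, which marks resident microglia, also rose, by 1.02 for C1qb, 1.30 for Trem2 and 0.78 for Csf1r on the log2 scale. Cx3cr1, the fractalkine receptor, did not pass (log2 fold change 0.44 ± 0.21 (SE), edgeR adjusted p = 0.188), nor did P2ry12, the nucleotide receptor of surveying microglia (log2 fold change 0.61 ± 0.36 (SE), edgeR adjusted p = 0.291). With GC and length trends removed, 12 members were called and the median was 0.75. The medians were 0.74 (SC_SYN), 0.32 (SC_TH), 0.61 (input_SYN) and -0.10 (input_TH). Of the 12 calls, 6 were kept in each of the fits without 1 mouse, and those lost included Csf1r (mouse 189).

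C4b, a complement component made by astrocytes and other brain cells (chromosome 17, 34728380 to 34743882, - strand), rose from 28.9 ± 2.96 CPM at 3w to 78.5 ± 12.9 at 5m, and was at 136 ± 12.95 at 18m (5m over 3w, log2 fold change 1.44 ± 0.14 (SE), edgeR adjusted p = 1.85e-05). Its near-identical neighbour C4a shares reads with it and is uncertain. Cd74 and H2-Ab1, which serve antigen presentation by MHC class II, rose from 1.55 ± 0.986 to 4.28 ± 1.19 CPM and from 0.422 ± 0.0962 to 1.33 ± 0.363 CPM, with at most 16 and 3 reads per library at 3w. In all, 4 of 17 tested complement, MHC and interferon genes rose and none fell. Among 25 astrocyte markers, Aldoc (log2 fold change 0.43 ± 0.12 (SE)) and Ndrg2 (0.42 ± 0.12 (SE)) rose. This called share of 8.0% was that of all genes tested (8.05%). Gfap, the intermediate filament of astrocytes, was at 897, 972, 959.6 and 834 CPM at 3w and 997, 883, 783 and 928 CPM at 5m, with overlapping groups. Both astrocyte calls depended on single mice and passed in 1 of the 8 fits without a mouse, the fit without mouse 187. Of 16 endothelial and mural genes Vtn, made by pericytes, rose (1.02) and the pericyte gene Rgs5 fell (-0.77; 12.5% called). The omission of 1 mouse removed the call of Cd74 (mice 188, 189, 190, 191, 192 and 193), Aldoc and Ndrg2 (any mouse but 187, each), H2-Ab1 (any mouse but 194) and Rgs5 (any mouse but 190). Removal of the GC and length trends ended the calls of H2-Ab1 (1.38) and Ndrg2 (0.31).

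**Figure D4:**
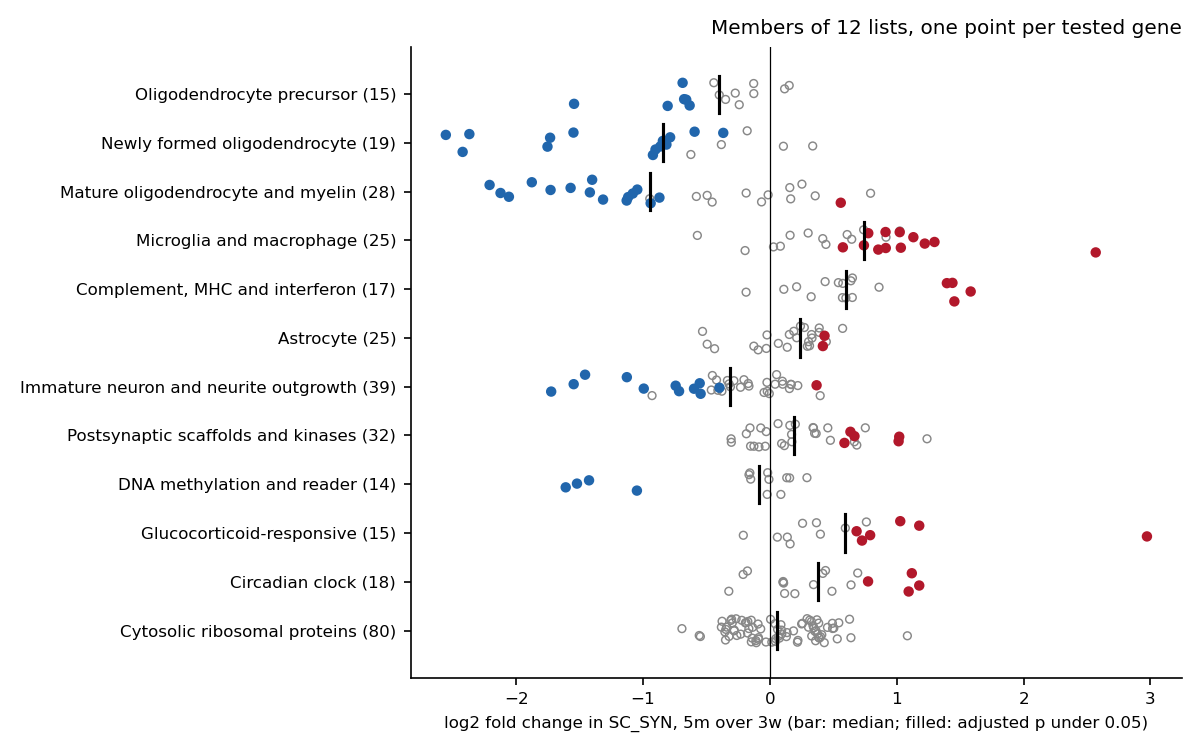
Log2 fold change in SC_SYN (5m over 3w, x axis) of each tested member of 12 lists, with filled points for genes called (red higher, blue lower), open points for genes not called and a bar at the median. The number of tested members is in brackets. Called members of the oligodendrocyte lists lie below 0 except Qdpr, and called microglial members lie above 0.

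Several genes of immature neurons fell. Of 39 genes of young neurons and neurite outgrowth 11 fell and 1 rose (median -0.31). Marcksl1, an actin-regulating protein of growth cones, was at 132, 67.6, 110.0 and 109 CPM at 3w and 53.9, 35.1, 35.3 and 28.4 CPM at 5m (log2 fold change -1.46 ± 0.21 (SE), edgeR adjusted p = 8.93e-04). Dcx, the microtubule protein doublecortin of migrating neurons, was at 10.95, 11.1, 9.72 and 9.26 CPM at 3w and 3.75, 5.09, 4.79 and 5.01 CPM at 5m (log2 fold change -1.13 ± 0.20 (SE), edgeR adjusted p = 0.00469). For both genes the groups did not overlap. Dpysl3 and Stmn2, which act on growth cone microtubules, and the transcription factor Sox4 fell by 0.99, 0.55 and 0.74. Cntn2, an adhesion molecule of axons that myelinated fibres keep at the juxtaparanode, was the member that rose (0.37). Single mice decided the calls of Sox4 (mice 188, 189, 193 and 194) and Cntn2 (any mouse but 187). With GC and length trends removed there was no call for Cntn2 (0.10).

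Axon guidance genes went in both directions, with 2 higher and 8 lower among 55. Sema6a, a transmembrane semaphorin, fell from 184 ± 30.7 to 74.8 ± 3.04 CPM (log2 fold change -1.29 ± 0.13 (SE), edgeR adjusted p = 2.30e-05), and Sema4d and the semaphorin receptor Plxnb3, both also made by oligodendrocytes, fell by 0.86 and 1.14. Slit1, a repellent for growing axons, rose from 282 ± 64.1 to 556 ± 92.4 CPM (log2 fold change 0.98 ± 0.19 (SE), edgeR adjusted p = 0.00621). The list median was 0.00, against -0.01 over all genes. With GC and length trends removed it was -0.16, against -0.03 over all genes, and 1 member was called higher and 12 lower. Of 12 tested cell division genes, Cenpf and Top2a, which act in mitosis and DNA untangling, fell from 3.98 ± 1.24 to 0.758 ± 0.446 CPM and from 2.43 ± 0.749 to 0.665 ± 0.129 CPM.

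The machinery of DNA methylation showed a fall in 4 of its 14 tested genes. Dnmt3a, the enzyme that sets new methyl marks in postnatal neurons (chromosome 12, 3806007 to 3914443, + strand), was at 188, 209, 209 and 204 CPM at 3w and 69.3, 67.6, 77.6 and 68.0 CPM at 5m. The ages were far apart compared with the spread among mice (log2 fold change -1.52 ± 0.11 (SE), edgeR adjusted p = 2.01e-06), and the 18m mean of 66.9 CPM was close to that at 5m. Tet1 and Tdg, which act in the removal of methyl marks, fell from 15.4 ± 1.40 to 5.71 ± 0.538 CPM and from 27.7 ± 1.96 to 13.4 ± 0.757 CPM. Uhrf1, which guides maintenance methylation in dividing cells, was at most 1.39 CPM at 5m. Dnmt1, the maintenance enzyme itself, was at 34.1, 43.3, 36.6 and 45.3 CPM at 3w and 41.5, 42.3, 40.0 and 45.3 CPM at 5m, and its groups overlapped (log2 fold change 0.09 ± 0.13 (SE), edgeR adjusted p = 0.694). The change of Dnmt3a was -0.86 (SC_TH), -1.38 (input_SYN) and -0.51 (input_TH). Its difference between SC_SYN and SC_TH was -0.64 ± 0.12 (SE) and did not pass (edgeR adjusted p = 0.0579).

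At glutamatergic synapses, 2 of 6 tested NMDA receptor subunits fell (median -0.20) and some postsynaptic scaffolds rose. Grin2b, the subunit that dominates in young cortex (chromosome 6, 135713233 to 136173511, - strand), was at 2477, 3039, 2931 and 2813 CPM at 3w and 1759, 1962, 2003 and 2259 CPM at 5m. Grin2a, its counterpart at mature synapses, was at 947, 1238, 1188 and 1123 CPM at 3w and 766, 811, 828 and 917 CPM at 5m. Both fell with no overlap (log2 fold change -0.50 ± 0.11 (SE), edgeR adjusted p = 0.0159; Grin2a, log2 fold change -0.44 ± 0.11 (SE), edgeR adjusted p = 0.0315). Grin1, the obligatory subunit, was at 2229 ± 138 and 2274 ± 219.7 CPM with overlapping groups. Among 19 AMPA receptor and auxiliary genes the secreted clustering factor Nptx1 rose (0.43; 0.24 and not called with GC and length trends removed). Gria1 and Gria2 gave -0.14 and -0.41 without passing. Of 16 kainate and metabotropic receptor genes, Neto2 and Neto1, auxiliary subunits of kainate receptors, fell by 0.62 and 0.38, and neither was called with the GC and length trends removed. Calls lost with 1 mouse fewer were those of Grin2b and Neto2 (mouse 189, each), Grin2a (mice 188, 189, 190, 191, 192 and 193), Nptx1 (mice 187, 188, 189, 190, 192 and 194) and Neto1 (any mouse).

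Of 32 postsynaptic scaffold and kinase genes 5 rose and none fell. Shank1, a master scaffold of the postsynaptic density whose mRNA is found in dendrites (chromosome 7, 44310253 to 44360572, + strand), was at 1781, 1305, 1887 and 2235 CPM at 3w and 3275, 3695, 4410.0 and 3231 CPM at 5m. All 5m values exceeded all 3w values (log2 fold change 1.02 ± 0.20 (SE), edgeR adjusted p = 0.00754). Shank3, its relative, was at 462, 314, 397 and 504 CPM at 3w and 768, 861, 979 and 780.2 CPM at 5m (log2 fold change 1.01 ± 0.21 (SE), edgeR adjusted p = 0.00930). Ddn, Sipa1l1 and Dlgap3, further proteins of the density, rose by 0.63, 0.67 and 0.59. With GC and length trends removed, Shank1 (0.54, edgeR adjusted p = 0.0261) and Shank3 (0.52, edgeR adjusted p = 0.0307) were still called and the other members were not. The change of Shank1 was 0.08 (SC_TH), 0.56 (input_SYN) and 0.04 (input_TH), and that of Shank3 0.12 (SC_TH), 0.42 (input_SYN) and -0.03 (input_TH). The difference of Shank1 from SC_TH was 0.96 ± 0.22 (SE) and did not pass (edgeR adjusted p = 0.140). Camk2a, the abundant kinase of the density, gave 0.35 and was not called. The omission of 1 mouse removed the call of Ddn (mouse 193), Sipa1l1 (mice 187, 188, 189, 192, 193 and 194) and Dlgap3 (any mouse but 190).

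Among genes listed for inhibitory synapses, the chloride transporters Slc12a2 and Slc12a5 were called in opposite directions, the latter only narrowly. Slc12a2 (NKCC1), which loads chloride into immature neurons and is also made by oligodendrocyte lineage cells, was at 159, 229, 197 and 157 CPM at 3w and 92.5, 99.2, 95.8 and 102 CPM at 5m. It fell in each of 18 alternatives (log2 fold change -0.93 ± 0.15 (SE), edgeR adjusted p = 0.00199). Slc12a5 (KCC2), which extrudes chloride from mature neurons, was at 1731, 1657, 1948 and 1712 CPM at 3w and 2592, 2083, 2226 and 2268 CPM at 5m. Its rise was just inside the threshold (log2 fold change 0.38 ± 0.11 (SE), edgeR adjusted p = 0.0497) and was 0.03 with GC and length trends removed. Of the 19 genes of this list Gabrg3, a GABA-A receptor subunit, also fell (-0.39). Among 20 interneuron peptide and calcium-binding genes Nos1 (0.45) and Crhbp (0.47) rose, Calb1 fell (-0.62), and Pvalb was at 20.0 ± 2.75 and 19.2 ± 3.48 CPM with overlapping groups. None of 11 genes of transmitter synthesis and vesicular loading passed with edgeR (2 at an unadjusted p under 0.05 and 0 with DESeq2), and 1 was called lower with GC and length trends removed. Single mice decided the calls of Nos1 (mice 188, 189, 190, 191, 193 and 194) and Slc12a5, Gabrg3 and Crhbp (any mouse, each). Removal of the GC and length trends ended the calls of Gabrg3 (-0.29) and Nos1 (0.25).

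On the presynaptic side, 4 of 52 vesicle, SNARE and active zone genes rose and 5 fell. Rims1, which tethers calcium channels and vesicles at the active zone, was at 410.3, 489, 469.8 and 491 CPM at 3w and 212, 307, 293 and 278 CPM at 5m (log2 fold change -0.77 ± 0.13 (SE), edgeR adjusted p = 0.00266). Its relative Rims3 was at 96.6, 123, 121 and 122 CPM at 3w and 193, 246, 207 and 204 CPM at 5m (log2 fold change 0.88 ± 0.15 (SE), edgeR adjusted p = 0.00266). These members of one family thus moved in opposite directions, each without overlap and in each of 18 alternatives. The calcium sensor Syt2 of fast synapses rose (0.58), as did Syt5 (0.58) and the scaffold Bsn (0.71). The plasma membrane SNARE Stx1a fell (-0.68). Snap25 was at 568, 1004, 861 and 759.8 CPM at 3w and 712, 902, 684 and 857 CPM at 5m, with overlapping groups. Of 39 synaptic adhesion genes 5 fell and none rose, namely the receptor phosphatase Ptprd (-0.63), its partner Il1rap (-0.47), Nlgn3 (-0.48), Igsf9b (-0.81) and Slitrk2 (-0.45). Removing the GC and length trends raised the number called lower to 9 vesicle genes and 9 adhesion genes. When 1 mouse was left out, calls were lost for Il1rap (mice 188, 189 and 193), Nlgn3 (mice 188, 189, 191 and 192), Bsn (mice 187, 188, 189, 192, 193 and 194), Syt5 (mice 188, 189, 190, 191, 193 and 194), Igsf9b (any mouse but 188) and Slitrk2 (any mouse but 187). With GC and length trends removed there was no call for Bsn (0.27) and Slitrk2 (-0.26).

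Clustered protocadherins give neurons a cell-surface identity code. Of 54 tested protocadherins 10 rose, all of the gamma cluster, and Pcdha3 and Pcdhb18 fell. Pcdhga9 was at 21.4, 27.0, 24.1 and 21.3 CPM at 3w and 51.8, 44.0, 53.3 and 47.5 CPM at 5m (log2 fold change 1.07 ± 0.13 (SE), edgeR adjusted p = 2.58e-04). Pcdhgb7 rose from 15.5 ± 2.07 to 34.0 ± 2.84 CPM, and its change was 1.08 (SC_TH), 1.37 (input_SYN) and 0.63 (input_TH). Genes of one cluster share their last exons, so their counts are not independent, and reads in shared exons are uncertain.

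None of 9 sodium channel genes passed with edgeR (2 at an unadjusted p under 0.05 and 0 with DESeq2), and of 15 calcium channel genes the T-type channel Cacna1h rose, from 118 ± 30.4 to 210.1 ± 21.8 CPM. Of 51 potassium and HCN channel genes 2 rose and 4 fell (11.8%, against 8.05% of all genes tested). Hcn2, which carries the hyperpolarization-activated current, rose (0.50) and was not called with GC and length trends removed, when no gene of this list was called higher and 6 were called lower. Kcnv1, Kcnk2, Kcnh5 and Kcna4 fell, by 0.73 for Kcnv1, a silent subunit that modifies other channels. Among 16 genes of neurofilaments and mature axons Nfasc, which anchors the node of Ranvier and is also made by oligodendrocytes, fell (-0.84), and Nefh, the heavy neurofilament chain, rose (0.52). Of 22 kinesins the axonal motor Kif5c fell (-0.53) and Kif13b (0.57) and Kif26b (0.48) rose (13.6% called). With these trends removed 3 kinesins were lower and none higher. Lrp1, an endocytic receptor for lipoproteins, was among the most abundant genes that rose, with 4429, 3568, 4039.7 and 3545 CPM at 3w and 6986, 5378, 5866 and 5731 CPM at 5m. Its groups did not overlap (log2 fold change 0.62 ± 0.14 (SE), edgeR adjusted p = 0.0133), and with GC and length trends removed it was no longer called (0.24, edgeR adjusted p = 0.248). Of the 6 potassium and HCN channel calls, 1 was kept in each of the fits without 1 mouse. Calls lost with 1 mouse fewer included those of Hcn2 (mice 188, 190 and 193), Kif5c (mice 188, 189, 191, 193 and 194), Nefh (mice 188, 189, 190, 192 and 193), Kif13b (any mouse but 188) and Kif26b (any mouse). Removal of the GC and length trends ended the calls of Nefh (0.24), Kif13b (0.41) and Kif26b (0.29).

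In the extracellular matrix, some components of the juvenile matrix fell and some of mature perineuronal nets rose. Tnc, tenascin C, fell from 25.5 ± 3.65 to 12.4 ± 1.61 CPM, Vcan, versican, from 44.8 ± 5.31 to 28.01 ± 3.14 CPM, and the link protein Hapln1 from 29.8 ± 2.33 to 15.8 ± 1.60 CPM. Hapln4, the link protein of adult nets, was at 146, 76.2, 126 and 150.5 CPM at 3w and 347, 260.4, 291 and 234 CPM at 5m (log2 fold change 1.18 ± 0.24 (SE), edgeR adjusted p = 0.00834), and Acan, aggrecan, at 26.2, 22.8, 23.2 and 20.5 CPM at 3w and 35.5, 32.6, 31.2 and 34.8 CPM at 5m. Neither Hapln4 nor Acan had overlapping groups. Adamts4, a protease that cleaves aggrecan-type proteoglycans and is expressed in oligodendrocytes, fell from 177 ± 15.9 to 55.9 ± 6.77 CPM (log2 fold change -1.66 ± 0.12 (SE), edgeR adjusted p = 2.02e-06). In all, 2 of 19 tested genes rose and 4 fell, against 1 higher and 7 lower with GC and length trends removed. Among 24 collagens and basement membrane genes Col3a1 (-2.002), Lama4 (-0.79) and Col1a1 (-1.23) fell and none rose (12.5%, against 8.05% of all genes tested). Eln, elastin, fell from 23.8 ± 7.49 to 6.10 ± 2.04 CPM. The omission of 1 mouse removed the call of Acan (mouse 190) and Col1a1 (mouse 193). With GC and length trends removed there was no call for Acan (0.33).

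Some genes of the circadian clock and some induced by glucocorticoids rose at 5m. Of 18 clock genes 4 rose and none fell (median 0.38), all of them repressors of the loop. Per1 (chromosome 11, 69095217 to 69109960, + strand) was at 56.6, 33.9, 49.1 and 55.3 CPM at 3w and 118, 101.1, 129 and 93.1 CPM at 5m (log2 fold change 1.18 ± 0.20 (SE), edgeR adjusted p = 0.00373). Per2 rose from 12.8 ± 1.92 to 27.4 ± 3.90 CPM, Bhlhe40 from 31.97 ± 4.54 to 69.5 ± 7.83 CPM and Bhlhe41 from 22.3 ± 6.23 to 38.1 ± 8.37 CPM. Bhlhe41 had overlapping groups. The activators Clock and Arntl gave -0.32 and -0.18 and did not pass. The time of day at which the mice were killed is not given in the sources used here. Single mice decided the calls of Bhlhe41 (mice 188, 189, 190, 191 and 193).

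Clock activators bind the E-box CACGTG, which reads the same on both strands. In promoter windows from RefSeq (GRCm38.p6), which span 250 bases before to 50 after a transcript start, 7.15% of 32851 windows hold these letters. For 16 of the 18 clock genes a window was given, and 6 of their 22 windows hold the letters. These windows belong to 5 genes, a count per gene that is not comparable with the share of windows. Of the 4 genes that rose, Per1 and Bhlhe41 have windows and both hold them. Their windows are shown with the E-box in capitals, as the letters searched for. The letters start 166 bases before the start in Per1 (chr11:69098699-69098998, + strand, 1 of its 2 windows) and 153 before in Bhlhe41 (chr6:145865371-145865670, - strand), and binding was not measured.
Per1: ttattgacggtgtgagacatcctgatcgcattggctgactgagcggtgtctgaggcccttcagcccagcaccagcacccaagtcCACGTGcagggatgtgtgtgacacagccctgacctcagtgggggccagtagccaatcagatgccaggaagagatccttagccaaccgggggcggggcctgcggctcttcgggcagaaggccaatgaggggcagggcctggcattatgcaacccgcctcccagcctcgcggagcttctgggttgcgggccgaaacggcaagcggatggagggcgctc
Bhlhe41: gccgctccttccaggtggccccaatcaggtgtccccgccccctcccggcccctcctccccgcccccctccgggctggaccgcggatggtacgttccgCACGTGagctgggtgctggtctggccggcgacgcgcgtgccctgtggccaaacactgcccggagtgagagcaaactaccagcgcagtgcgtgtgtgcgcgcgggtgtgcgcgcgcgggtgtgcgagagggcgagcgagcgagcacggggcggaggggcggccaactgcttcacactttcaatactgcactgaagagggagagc

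Of 15 glucocorticoid-responsive genes 6 rose and none fell (median 0.59), and Per1 belongs to this list too. Tsc22d3, the glucocorticoid-induced leucine zipper, was at 47.4, 39.5, 43.2 and 36.2 CPM at 3w and 76.7, 73.9, 63.6 and 73.5 CPM at 5m. The groups were separate at 5m (log2 fold change 0.79 ± 0.12 (SE), edgeR adjusted p = 0.00138), and the 18m libraries, between 33.0 and 39.5 CPM, lay below every 5m value and reached below the lowest 3w value. Sgk1, a kinase induced by stress hormones, rose from 13.01 ± 2.62 to 26.6 ± 2.34 CPM, Pdk4, which restrains glucose oxidation, from 14.1 ± 2.47 to 23.2 ± 2.55 CPM, and Fkbp5, a co-chaperone of the glucocorticoid receptor, from 19.1 ± 4.38 to 30.7 ± 3.09 CPM. The medians of the list were 0.59 (SC_SYN), 0.53 (SC_TH), 0.45 (input_SYN) and 0.46 (input_TH). Among 25 activity-induced early genes Fosb rose, from 6.42 ± 2.74 to 16.1 ± 2.11 CPM, while Arc, a regulator of AMPA receptor uptake with dendritic mRNA, was at 227, 129, 218 and 412 CPM at 3w and 536, 683, 637 and 470.3 CPM at 5m and missed the threshold (log2 fold change 1.24 ± 0.37 (SE), edgeR adjusted p = 0.0511). The median of the early genes was 0.48, and 20 of the 25 had positive values. The number called higher was 7 with DESeq2 and 4 with GC and length trends removed (Fosb, Nr4a2, Nr4a3 and Ptgs2). When 1 mouse was left out, calls were lost for Fkbp5 (any mouse). Removal of the GC and length trends ended the calls of Fkbp5 (0.56).

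**Figure D5:**
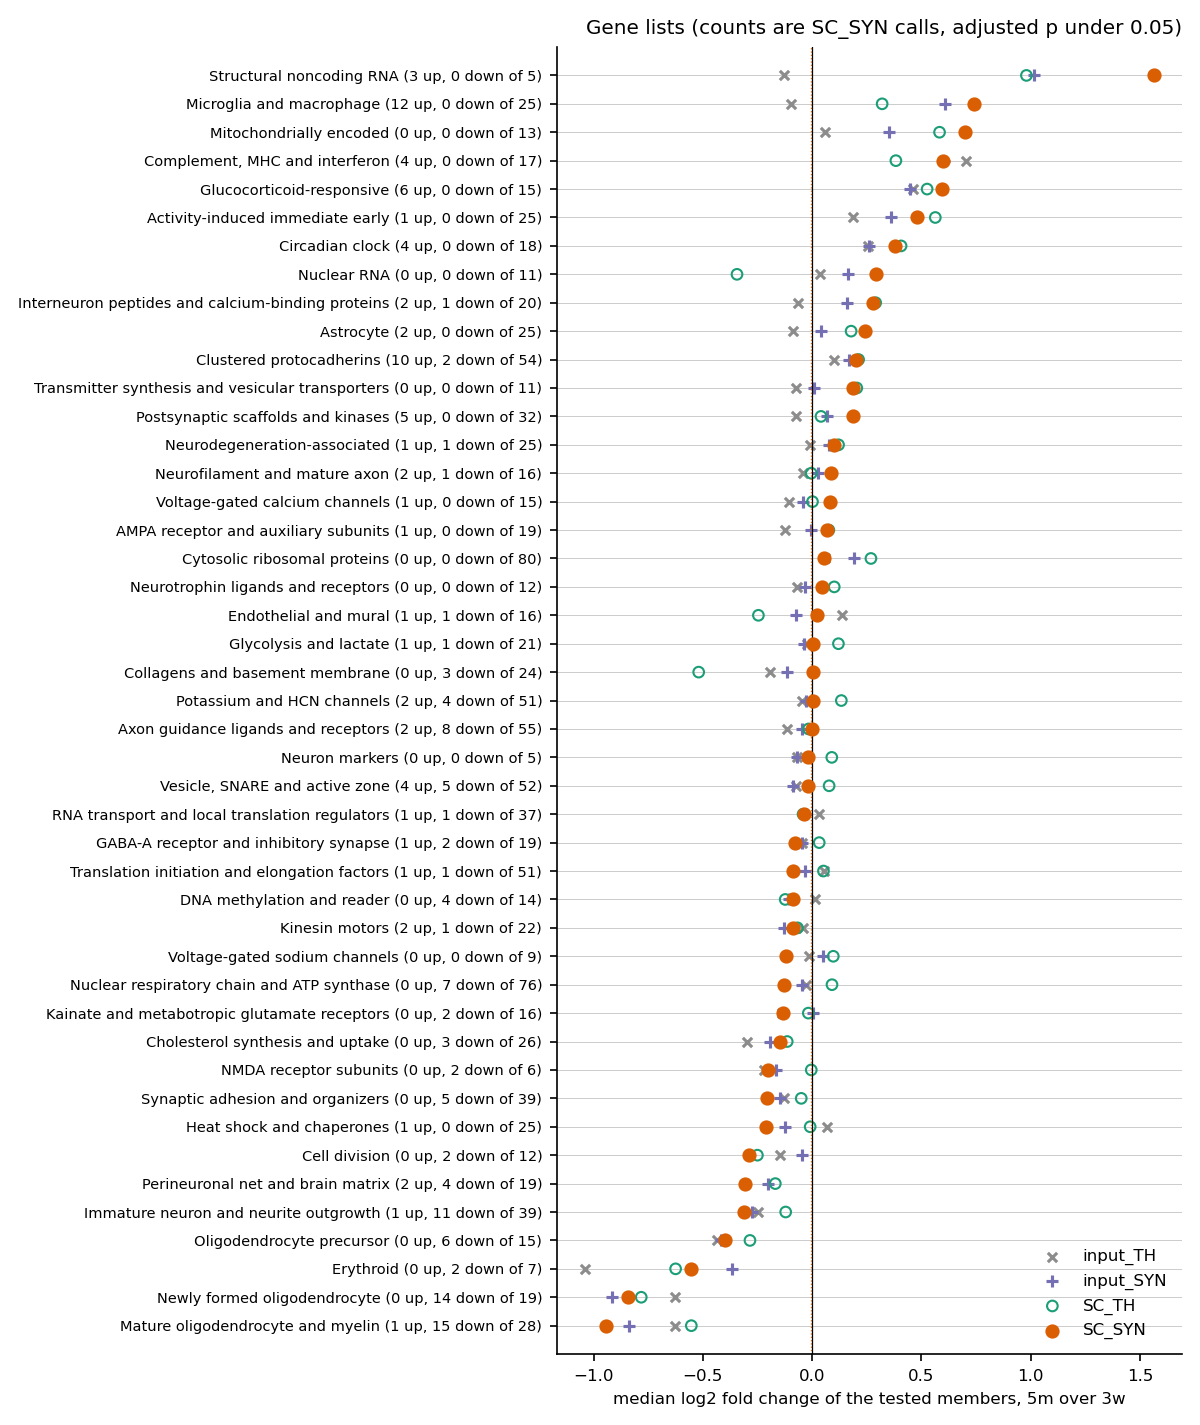
Median log2 fold change (5m over 3w, x axis) of the tested members of 45 lists in SC_SYN (filled), SC_TH (open circle), input_SYN (plus) and input_TH (cross), with the number of members called in SC_SYN after each name. The oligodendrocyte lists have the lowest SC_SYN medians (-0.94 and -0.84) and structural noncoding RNA the highest (1.56).

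Some small structural RNAs rose in the 5m pellets. Rmrp, the RNA of the RNase MRP complex (chromosome 4, 43492788 to 43493058, - strand), was at 7.90, 8.88, 9.72 and 15.6 CPM at 3w and 79.7, 57.0, 69.2 and 47.9 CPM at 5m (log2 fold change 2.58 ± 0.35 (SE), edgeR adjusted p = 5.31e-04). Rpph1, the RNA of RNase P, rose from 25.7 ± 6.55 to 63.1 ± 18.8 CPM, and Rn7sk, the RNA that restrains transcription elongation, from 52.3 ± 15.5 to 133 ± 39.4 CPM. Of the 5 tested RNAs of this list 3 rose, and the other two, the signal recognition particle RNAs Rn7s1 and Rn7s2, gave 1.57 and 1.56 without passing. All 5 were called higher with GC and length trends removed. Among 19 small nuclear RNAs tested, 5 rose and all 19 had positive values, with a median of 1.31 (SC_SYN), 0.09 (SC_TH), 0.84 (input_SYN) and 0.00 (input_TH). Many of these genes are short and have near-identical copies, which makes their counts uncertain. None of 11 long nuclear RNAs passed with edgeR (3 at an unadjusted p under 0.05 and 1 with DESeq2), and Malat1 was at 590.4, 1035, 893 and 629.6 CPM at 3w and 701, 702, 911 and 1535 CPM at 5m, with overlapping groups. The part of nuclear RNA in these values was not tested. Leaving out 1 mouse ended calls for Rn7sk (mice 188, 189, 191 and 193).

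A pair of unnamed loci stood out by abundance and were noted after their values were seen. Gm26917, annotated as a long noncoding RNA, was at 2228, 2213, 3581 and 1657 CPM at 3w and 11966, 4875, 6774 and 5584 CPM at 5m (log2 fold change 1.59 ± 0.29 (SE), edgeR adjusted p = 0.00533). Gm23935, annotated as a microRNA locus, was at 1374, 231, 1347 and 1886 CPM at 3w and 10276, 2281, 3705 and 2341 CPM at 5m (log2 fold change 1.94 ± 0.54 (SE), edgeR adjusted p = 0.0395), and its call was lost without mouse 191 (edgeR adjusted p = 0.150). Mouse 191 had the highest value at both loci, and also at Gm42418, which missed the threshold (1.60). The change of Gm26917 was 0.33 (SC_TH), 0.96 (input_SYN) and -0.16 (input_TH), and that of Gm23935 0.11, 0.85 and -0.25 in the same order. Whether the reads at these loci stem from the annotated RNAs was not tested.

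Processed pseudogenes, the retrotransposed copies of spliced mRNAs, mostly had lower values at 5m. They made up 848 of the tested genes (5.96%), 91 of the 573 genes that fell (15.9%) and 2 of the 573 that rose. Of all 848, 717 had negative values, with a median of -0.52 (SC_SYN), -0.15 (SC_TH), 0.01 (input_SYN) and -0.02 (input_TH). The median stayed at -0.41 with GC and length trends removed. Reads from a pseudogene and its parent are hard to separate, and the shortest of 5 groups of genes by length, up to 2194 exonic bases, also had a lower median (-0.13) than the others (-0.01 to 0.03).

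Of the translation apparatus, none of 80 cytosolic ribosomal protein genes passed with edgeR (median 0.05), and they took 0.620% ± 0.0290 of the counts at 3w and 0.597% ± 0.0381 at 5m (SD, n = 4; two-sided exact permutation p = 0.343). The unadjusted p was under 0.05 for 10 of them, and DESeq2 called 3, all higher. A single one was called higher with GC and length trends removed. Their median was 0.27 in SC_TH and 0.19 in input_SYN. Of 51 initiation and elongation factors Eif4ebp2, a repressor of cap-dependent initiation that is the main form in brain, rose (0.48) and Eif3j1 fell (-0.93). Of 37 regulators of RNA transport and local translation Celf4 rose (0.49) and Celf1 fell (-0.38), and Fmr1, the fragile X protein that represses dendritic mRNAs, gave -0.52 without passing. The numbers higher and lower with GC and length trends removed were 1 and 3 among the factors and 4 and 1 among the regulators. Of 25 chaperones the inducible Hspa1b rose (0.76). Calls lost with 1 mouse fewer were those of Celf4 (mice 188, 192, 193 and 194), Celf1 (mice 188, 189, 191, 192 and 194), Eif3j1 and Hspa1b (mice 188, 189, 191, 192, 193 and 194, each) and Eif4ebp2 (any mouse but 187). The GC and length trends, when removed, took the calls of Hspa1b (0.54) with them.

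Of 76 nuclear genes of the respiratory chain 7 fell and none rose (median -0.13, and 0.09 in SC_TH). The called share was 9.21%, against 8.05% of all genes tested. Ndufa1, a subunit of complex I, fell from 35.6 ± 6.57 to 19.9 ± 3.37 CPM (log2 fold change -0.83 ± 0.16 (SE), edgeR adjusted p = 0.00787), and Cox7c, of complex IV, from 154 ± 22 to 93.8 ± 5.07 CPM. The others were Ndufb9 (-0.57) and Ndufs4 (-0.64) of complex I, Cox6c (-0.53) and Cox7a2 (-0.56) of complex IV and Cycs, cytochrome c (-0.53). Of these 7, 4 were called with GC and length trends removed. The omission of 1 mouse removed the call of Cox7c (mouse 189), Ndufs4 (mice 188, 191 and 193), Ndufb9 (mice 188, 189, 192, 193 and 194), Cox7a2 (mice 187, 188, 190, 191, 192 and 194) and Cycs and Cox6c (any mouse, each). Removal of the GC and length trends ended the calls of Ndufb9 (-0.57), Cycs (-0.34) and Cox7a2 (-0.41). The 13 mitochondrially encoded mRNAs all had positive values (median 0.70) and none passed with edgeR (4 at an unadjusted p under 0.05 and 0 with DESeq2). Their share of counts ranged from 0.808% to 1.08% at 3w and from 0.611% to 2.03% at 5m, so that the 5m libraries enclosed those of 3w (two-sided exact permutation p = 0.457). The 10 most counted genes took 6.26% ± 0.382 at 3w and 7.11% ± 0.621 at 5m (exact permutation p = 0.0571).

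In cholesterol synthesis and uptake, 3 of 26 genes fell and none rose (11.5%, against 8.05% of all genes tested). Hmgcs1, an early enzyme of the pathway, fell from 511 ± 91.1 to 318 ± 13.2 CPM, and Cyp51 and Hsd17b7, which act later in the pathway, fell by 0.50 and 0.54. Of 21 glycolysis and lactate genes the lactate transporter Slc16a7 (MCT2) of neurons fell (-0.94) and Aldoc, which is also an astrocyte marker, rose (9.52% called). None of 12 neurotrophin ligands and receptors passed with edgeR (6 at an unadjusted p under 0.05 and 2 with DESeq2), and Bdnf was at 40.0, 47.6, 51.0 and 45.2 CPM at 3w and 41.3, 45.2, 42.5 and 47.4 CPM at 5m, with overlapping groups. Of 25 genes linked to neurodegeneration 1 rose (Trem2) and 1 fell (8.0% called), and App gave 0.08 without passing. Of 7 erythroid genes 2 fell, among them Bpgm, which other cells also express, whereas the hemoglobin genes did not pass, with values from -0.87 for Hbb-bt to -0.30 for Hba-a2. Single mice decided the calls of Hmgcs1 (mice 188, 189, 192 and 193) and Cyp51 (mice 188, 189, 191, 192, 193 and 194).

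How many called members of a list kept their call in each of the 8 fits without 1 mouse varied between the lists. All 16 members of the mature oligodendrocyte list kept it, and so did 13 of 14 for the newly formed stage and 4 of 6 for precursors. It was 6 of 12 for microglia, 8 of 12 for immature neurons, 6 of 10 for axon guidance, 5 of 6 for the perineuronal net list, 5 of 6 for glucocorticoid-responsive genes and 3 of 4 for clock genes. At the synapse it was 5 of 9 for vesicle genes, 2 of 5 for scaffolds, 1 of 5 for adhesion genes and 0 of 2 for NMDA receptor subunits. It was 6 of 12 for protocadherins, 1 of 6 for potassium and HCN channels and 1 of 7 for the respiratory chain. Some lists had a called share below the 8.05% of all genes tested, such as 3.92% for translation factors, 5.41% for RNA transport and 5.26% for AMPA receptor genes. It was 4.0% for chaperones and for early genes and 6.67% for calcium channels.

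Several of the largest changes lay outside these lists, and most of them had low counts. Pomc, the precursor of melanocortin peptides, rested on 2 to 4 reads per library at 3w and 20 to 123 at 5m (0.359, 0.646, 0.694 and 0.325 CPM at 3w and 8.76, 1.96, 12.3 and 1.74 CPM at 5m; log2 fold change 3.54 ± 0.72 (SE), edgeR adjusted p = 0.00894). Abca8a, a lipid transporter, was at 3.95, 5.81, 3.64 and 4.39 CPM at 3w and 15.3, 16.3, 14.3 and 15.9 CPM at 5m (log2 fold change 1.79 ± 0.16 (SE), edgeR adjusted p = 1.43e-05), and its change was 2.40 (SC_TH), 1.90 (input_SYN) and 2.21 (input_TH). Prelp, a leucine-rich matrix proteoglycan, rose from 9.24 ± 4.99 to 33.8 ± 2.57 CPM, and Prg4, lubricin, from 2.65 ± 0.334 to 10.1 ± 3.21 CPM. Acacb, the acetyl-CoA carboxylase that controls mitochondrial fat oxidation, rose from 2.63 ± 0.396 to 8.13 ± 2.04 CPM, and its change was -0.02 (SC_TH), 0.89 (input_SYN) and 0.78 (input_TH). Itgb2, the beta chain of leukocyte integrins, rose from 4.71 ± 1.02 to 14.1 ± 1.13 CPM. The remaining largest rises were Mlph (2.09), Tspo (1.79), Fmo5 (1.71), Tns2 (1.66) and Ddo (1.46), with Lrrc10b, which rose from 17.8 ± 5.69 to 50.2 ± 12.2 CPM.

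Among the falls, Rnf122, a ubiquitin ligase, and Prom1, prominin 1, both on the list of newly formed oligodendrocytes, gave -2.55 and -2.42. Tspan2, a tetraspanin of myelin, was at 163, 207, 182 and 147 CPM at 3w and 33.3, 39.0, 44.6 and 43.2 CPM at 5m (log2 fold change -2.12 ± 0.14 (SE), edgeR adjusted p = 1.12e-06). Gsn, the actin-severing protein gelsolin, was at 357, 224, 266 and 241 CPM at 3w and 89.0, 68.9, 73.8 and 66.2 CPM at 5m (log2 fold change -1.87 ± 0.17 (SE), edgeR adjusted p = 1.59e-05), and Elovl7, which elongates fatty acids, fell from 25.7 ± 3.19 to 7.49 ± 1.31 CPM. For Tspan2 and for Gsn every value at 5m was below every value at 3w, as the rule that named them required. Ctsk, cathepsin K (-2.27), Chst3, a chondroitin sulfotransferase (-2.13), Fzd10, a Wnt receptor (-2.01), and Mpzl1 (-1.75) were the other genes named for the size of their fall.

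Whether the age change of SC_SYN differed from that of the homogenate pellet was tested as an interaction over 24 libraries. It passed for 5 of 16630 genes (0.0301%), all with a more positive change in SC_SYN. They were Lncpint, 9330162G02Rik, 2900027M19Rik, Gm37524 and Intu. Lncpint, a long noncoding RNA induced by p53, was at 0.898, 1.13, 1.04 and 1.30 CPM at 3w and 3.13, 2.74, 3.49 and 2.79 CPM at 5m in SC_SYN, and at 23.04 ± 5.09 and 21.8 ± 1.02 CPM in SC_TH. Its groups were separate in SC_SYN (difference of changes 1.54 ± 0.26, edgeR adjusted p = 0.0314). Intu, a planar polarity effector needed for cilia, gave 0.61 in SC_SYN and -0.36 in SC_TH (difference 0.99 ± 0.17, edgeR adjusted p = 0.0314). Gm37524 rested on 0 to 1 reads at 3w and 3 to 11 at 5m in SC_SYN. With the mouse as a block 10 genes passed. These did not include Intu (edgeR adjusted p = 0.0752) or 2900027M19Rik (0.0638), and the other three of the 5 were still called. Without a single mouse between 0 and 8 passed, with 0 whenever mouse 187, 190, 191, 192, 193 or 194 was left out. For 1324 genes the unadjusted p was under 0.05, and DESeq2 called 55 genes (51 more positive in SC_SYN).

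Whether a transcript changed in its ribosome-bound share relative to synaptosomal RNA was tested against input_SYN, and no gene of 14301 passed with edgeR (0.0%). At an unadjusted p under 0.05 there were 473, and DESeq2 called 0. On simulated counts, this test recovered 69.2% of 198 planted log2 changes of 1.5. Changes of that size or smaller could thus be missed, and input_SYN libraries at 3w held as few as 1780267 counts. The median changes of the 573 genes higher in SC_SYN were 0.43 in SC_TH, 0.48 in input_SYN and 0.23 in input_TH, and those of the 573 lower genes -0.46, -0.51 and -0.32.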

How the data were processed

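RNA was measured by sequencing of rRNA-depleted, directional libraries with UMI adaptors (NEBNext). The authors deposited 1 table of raw counts per gene over all 48 libraries, made from reads demultiplexed with bcl2fastq 2.20.0.422, aligned with TopHat2 2.1 to GRCm38 and counted with featureCounts without regard to strand, so a gene and its antisense partner cannot be told apart. Removal of UMI duplicates is not stated, and intervals and tests take reads as they were counted. Labels map 8 SC_SYN libraries to this comparison, and 0 columns were left unmapped.

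Counts were tested in R 4.3.3 with edgeR 4.0.16 (TMM scaling, filterByExpr, quasi-likelihood test, Benjamini-Hochberg adjustment over all genes tested, threshold 0.05) in a fit of the 12 SC_SYN libraries at 3 ages, which keeps 14240 of 48526 genes. The interactions with SC_TH and with input_SYN were each fitted over 24 libraries. Alternatives were DESeq2 1.42.0, other scalings and filters, offsets for GC content and exonic length (loess), thinning to equal depth, other sets of libraries and each mouse left out. The count models were tested on simulated counts with planted log2 changes of 1.5. They recovered 91.4% of these in the SC_SYN comparison, 76.5% against SC_TH and 69.2% against input_SYN. Library shares were compared with two-sided exact permutation tests over 70 assignments.

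Fractions with the same mouse number come from the same animal, so the mouse is the block of the paired fit. Deviations from the age mean correlated by -0.32 to 0.47 between SC_SYN and SC_TH and by -0.61 to 0.62 between SC_SYN and input_SYN. No pair of libraries agreed within sampling noise. Genes were named by rule. The 15 largest changes in each direction were taken among genes called, with no overlap and no predicted, Rik, AC or pseudogene name. These also needed 50 or more counts on average in the age group with the higher level. Added to them were the 5 genes of highest mean CPM called in each direction and up to 10 interaction genes. Each of 44 lists gave up to 4 members by adjusted p and its first 2. Further list members are named where a count in the text contains them, and these, like the unnamed loci, were chosen after their values were seen. The comparison, lists and rules were chosen with earlier results of these data known. Values of some of the genes so named are not reported here.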

Additional observations from a re-analysis of the deposited data

Results flagged for a closer look

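Among 86 groups of 4 libraries, made of the genes named for size or abundance and the library shares, 6 held a library far from the other three, where chance gives about 1 in 20 (4.3 groups). The gap as a share of the range was 0.930 for Tspo at 5m (mouse 191, 6.51 CPM against 4.46 to 4.601), 0.964 for Prom1 at 5m (mouse 194, 5.64 against 4.59 to 4.63), 0.874 for Ctsk at 5m (mouse 191, 1.501 against 2.55 to 2.70) and 0.837 for Eln at 5m (mouse 191, 9.13 against 4.79 to 5.50). At 3w it was 0.917 for Ddo (mouse 190, 4.06 CPM against 5.75 to 5.90) and 0.886 for Aldoc (mouse 187, 1877 against 1470.2 to 1516). Mouse 191 was the library that stood off in 3 of the 6 groups. Each of these genes kept its groups apart between the ages, which the rule required of genes named for the size of their change.

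The age change in SC_SYN exceeded that in SC_TH (difference of log2 fold changes, edgeR interaction test) by 1.54 for Lncpint, 1.10 for 9330162G02Rik, 0.99 for Intu, 2.07 for 2900027M19Rik and 3.86 for Gm37524. The last value depends on the prior count, since Gm37524 had 0 to 1 reads per SC_SYN library at 3w. Lncpint had 5 to 8 and 2900027M19Rik 2 to 7 reads in these libraries. For 9330162G02Rik the change was 0.34 in SC_SYN and -0.74 in SC_TH, and for 2900027M19Rik it was 1.44 and -0.60. Adjusted p (edgeR) was 0.0314 for the first 4 genes and 0.0487 for Gm37524. With the mouse as a block Intu (edgeR adjusted p = 0.0752) and 2900027M19Rik (0.0638) were not called. None of the 5 passed when mouse 187, 190, 191, 192, 193 or 194 was left out.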

How the results depend on the processing

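The count of 1146 genes changed between 5m and 3w rose to 1767 with DESeq2 and to 3464 when all 48 libraries shared 1 fit, and ranged from 558 to 1264 with 1 mouse left out. The count with DESeq2 contained 1140 of the 1146 genes and that with all 48 libraries 1142. The 5 genes that differed from SC_TH became 55 with DESeq2, 22 with no filter, 2 with at least 10 counts and 10 with the mouse as a replicate block, and ranged from 0 to 8 with 1 mouse left out. Against input_SYN, 0 genes passed in every setting, the replicate block included. The cause of these shifts was not tested. Library shares moved by less than the spread between mice in all settings run for them.

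Of 139 named genes called, DESeq2 and RLE scaling kept all 139 calls, GC and length offsets 117, library size scaling 130, no filter 126, and the fits with 1 mouse fewer between 101 and 124. Nrxn2 changed sign with GC and length offsets, from 0.03 without a call to -0.53 with one. List medians moved by more than the spread among mice in 8 of 45 lists with GC and length offsets (toward lower values in most, such as -0.38 for NMDA receptor subunits and -0.57 for oligodendrocyte precursors) and in 3 with at least 10 counts. With DESeq2 the number of called members rose by over 1.5 times from 5 to 9 for postsynaptic scaffolds, from 3 to 5 for the inhibitory synapse, from 10 to 16 for axon guidance, from 12 to 19 for protocadherins, from 2 to 5 for astrocytes, from 1 to 7 for early genes, from 2 to 6 for RNA transport, from 2 to 4 for translation factors and from 2 to 4 for neurodegeneration. It rose from 1 to 2 for AMPA receptor genes and for chaperones. From 0 it rose to 3 for cytosolic ribosomal proteins, 2 for neurotrophins and 1 for nuclear RNA. Thinning all libraries to equal depth gave 957 genes.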

Other observations

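A few genes outside all lists, picked after their values were seen, concern secreted peptides and low-count genes. Avp, the vasopressin precursor, had 4, 0, 5 and 11 reads at 3w and 769, 30, 17 and 9 reads at 5m, so that 1 library (mouse 191) held most of them. It was not called (log2 fold change 4.85 ± 1.57 (SE), edgeR adjusted p = 0.0697), and without mouse 191 the value was 0.99. Vgf, a precursor of neuroendocrine peptides, rose from a mean of 1394 to 2324 CPM (0.74, edgeR adjusted p = 0.0331), was not called without mouse 191 (edgeR adjusted p = 0.0990) and had a mean of 1386 CPM at 18m. Casr, the calcium-sensing receptor, fell from 6.91 to 0.900 CPM, with changes of -2.95 (SC_SYN), -2.13 (SC_TH), -2.31 (input_SYN) and -2.40 (input_TH). Slc45a3, a sugar transporter family member, fell from 4.23 to 0.690 CPM, with changes of -2.61, -2.11, -2.88 and -1.92 in the same order.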
